A study of Mus musculus with 4 samples.

Results

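The platelet-derived growth factor (PDGF) family was followed through mouse pancreatic tumors as 6 genes, taken by symbol from the 32285 genes counted in every cell. They are the receptors Pdgfrb and Pdgfra and the ligands Pdgfa, Pdgfb, Pdgfc and Pdgfd, and each symbol matched 1 gene. Single-cell RNA-seq was done on KPC tumors, grown from pancreatic adenocarcinoma cells that had been grafted into the pancreas of obese C57BL/6 males after 24 weeks of a high-fat diet. The labels give the mice an age of 7 months and the study's methods 12 months. There were 4 libraries. Pdgfrb-TK/GCV and Pdgfrb-TK/PBS came from hosts carrying a thymidine kinase transgene under the Pdgfrb promoter, injected i.p. every other day for 25 days with ganciclovir (GCV, 50 mg/kg), which the kinase turns into a toxin, or with PBS. D-CAN and WT/PBS came from wild-type hosts given, on the same schedule and s.c., PBS or D-CAN (30 mg/kg), a peptide that homes to adipose stromal cells and is joined to a second peptide that induces cell death.

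Both Pdgfrb-TK groups carried the transgene, which could act in host cells with an active Pdgfrb promoter, while the grafted tumor cells lacked it. Besides CAFs, the study describes the targets of GCV in these hosts as proliferating Pdgfrb+ cell types, among them a subset of pericytes. Pdgfrb is therefore both a gene of interest and the gene whose promoter chose the cells to be killed. For D-CAN, too, the study names PDGFRβ, the protein of Pdgfrb, with nonglycanated decorin as marks of the targeted cells. It lists pericytes among them. Tumors were pooled by treatment, so each condition was 1 library, and no test between conditions was possible. Every interval below is a 95% interval for counting error only. GCV and D-CAN were each compared with the PBS library of the same host, and "the control" of GCV below is Pdgfrb-TK/PBS.

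PDGF ligands act as paired chains on receptor tyrosine kinases at the cell surface. PDGFRα binds the A, B and C chains, and PDGFRβ binds the B and D chains. The C and D chains become active only after a protease has cut them. In tissues the receptors are typical of mesenchymal cells, with PDGFRβ on pericytes, the mural cells of capillaries, and on fibroblasts, and PDGFRα on fibroblasts. Endothelial PDGF-B is known to recruit pericytes to new vessels, and epithelial tumor cells are known to supply PDGF chains to cancer-associated fibroblasts (CAFs).

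In the GRCm38 (mm10) build and GENCODE M21, Pdgfrb lies at chr18:61045150-61085061 and Pdgfra at chr5:75152292-75198215, both on the plus strand. Pdgfa (chr5:138976014-138997370) and Pdgfb (chr15:79995874-80014977) are on the minus strand. Pdgfc (chr3:81036416-81214040) and Pdgfd (chr9:6168584-6378850) are on the plus strand and are the longest of the 6, at 177625 and 210267 bases. No gene overlaps any of them on the same strand.

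Counts were unique molecular identifiers (UMIs), each standing for 1 captured transcript, and the libraries held 84020317 to 155408336 of them. With at least 200 genes required, 10178 to 12280 cells per library were kept, with a median of 4514.5 to 7421 UMIs. In D-CAN 29.3% of cells had more than 20% mitochondrial UMIs, against 4.48% to 18.2% in the other libraries. Any pair of libraries shared 26 to 42 cell barcodes.

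Cells were sorted into 15 classes by 8 marker genes each, none of them a PDGF gene. A cell had to show at least 3 markers of its class and 2 more than of any other class, and 26.2% to 36.6% of each library stayed ungated. Fibroblast-like cells (CAFs by position in a tumor) numbered 116 with GCV and 319 in its control, and 956 with D-CAN and 1651 in WT/PBS, or 0.945%, 3.05%, 9.39% and 14.2% of cells. All 8 of their markers were present in every library, at a summed 11577 to 21890 CPM (counts scaled to 1000000 UMIs of the class). Pericyte-like cells numbered 2, 21, 23 and 68 in the same library order, used from here on, and endothelial-like cells (ECs) 41, 122, 91 and 368. Tumor-like cells, with keratins and Epcam, numbered 3061 to 6555 and macrophage-like cells 363 to 1439.

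The fibroblast-like class was not the same population in each library. By clustering of all cells, 80.2% of it in Pdgfrb-TK/GCV and 58.9% in Pdgfrb-TK/PBS fell in a single cluster, against 6.90% in D-CAN and 11.8% in WT/PBS. This cluster was led by Calca, Stmn2 and Il1rapl1, with the mesothelial marker Upk3b further down. It took the name mesothelial-like from the class markers. The summed mesothelial markers of the fibroblast-like class were 185, 306, 193 and 144 CPM, in each library below those of tumor-like cells (281 to 536 CPM). In this class Upk3b, Lrrn4 and Muc16 were at 0 with GCV, Muc16 in its control and with D-CAN, and Lrrn4 in WT/PBS. The other mesothelial markers of the class had UMIs. Its summed tumor markers were 592 CPM with GCV and 514 CPM with D-CAN, against 1688 and 1669 CPM in the PBS libraries. Of the 8 tumor markers, 6 to 8 had UMIs, with Cldn4 at 0 in both Pdgfrb-TK libraries and Cldn7 with GCV. Pericyte markers, of which 7 or 8 had UMIs (Higd1b was at 0 with GCV), summed to 368, 209.5, 213 and 131 CPM, so the library lowest in Pdgfrb below was highest in this sum. A median fibroblast-like cell showed 5 to 7 fibroblast markers, 1 or 2 tumor markers and 1 mesothelial marker, and 70, 101, 144 and 313 of these cells sat at the smallest margin allowed. The part of this mixture in the levels below was not tested beyond the values within single clusters.

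The receptors were carried by stroma and the ligands by several classes, each with its own pattern. Among classes with at least 10 cells, Pdgfrb was most abundant in pericyte-like cells in the 3 libraries that had as many of them, at 689 CPM in Pdgfrb-TK/PBS, 1065 CPM with D-CAN and 572 CPM in WT/PBS. With GCV only 2 pericyte-like cells were found, with 19 UMIs (833 CPM). Pairs of smooth muscle-like cells held 5 UMIs in Pdgfrb-TK/PBS (1280.1 CPM, 416 to 2987) and 4 in WT/PBS. In fibroblast-like cells it reached 70.8 to 261 CPM, and in tumor-like cells it stayed between 0.501 and 1.23 CPM. Among ECs 0 to 7 Pdgfrb UMIs were counted per library.

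Pdgfra had the opposite place in mural cells. Fibroblast-like cells held 107 to 366 CPM of it, while pericyte-like cells held 0, 0, 3 and 1 UMIs. Mesothelial-like cells, a small class of 1 to 25 cells per library, held 262 CPM with GCV (15 cells), 147 CPM in its control (21 cells) and 67.1 CPM with D-CAN (25 cells). Tumor-like cells held 0.840 to 1.13 CPM.

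**Figure D1:**
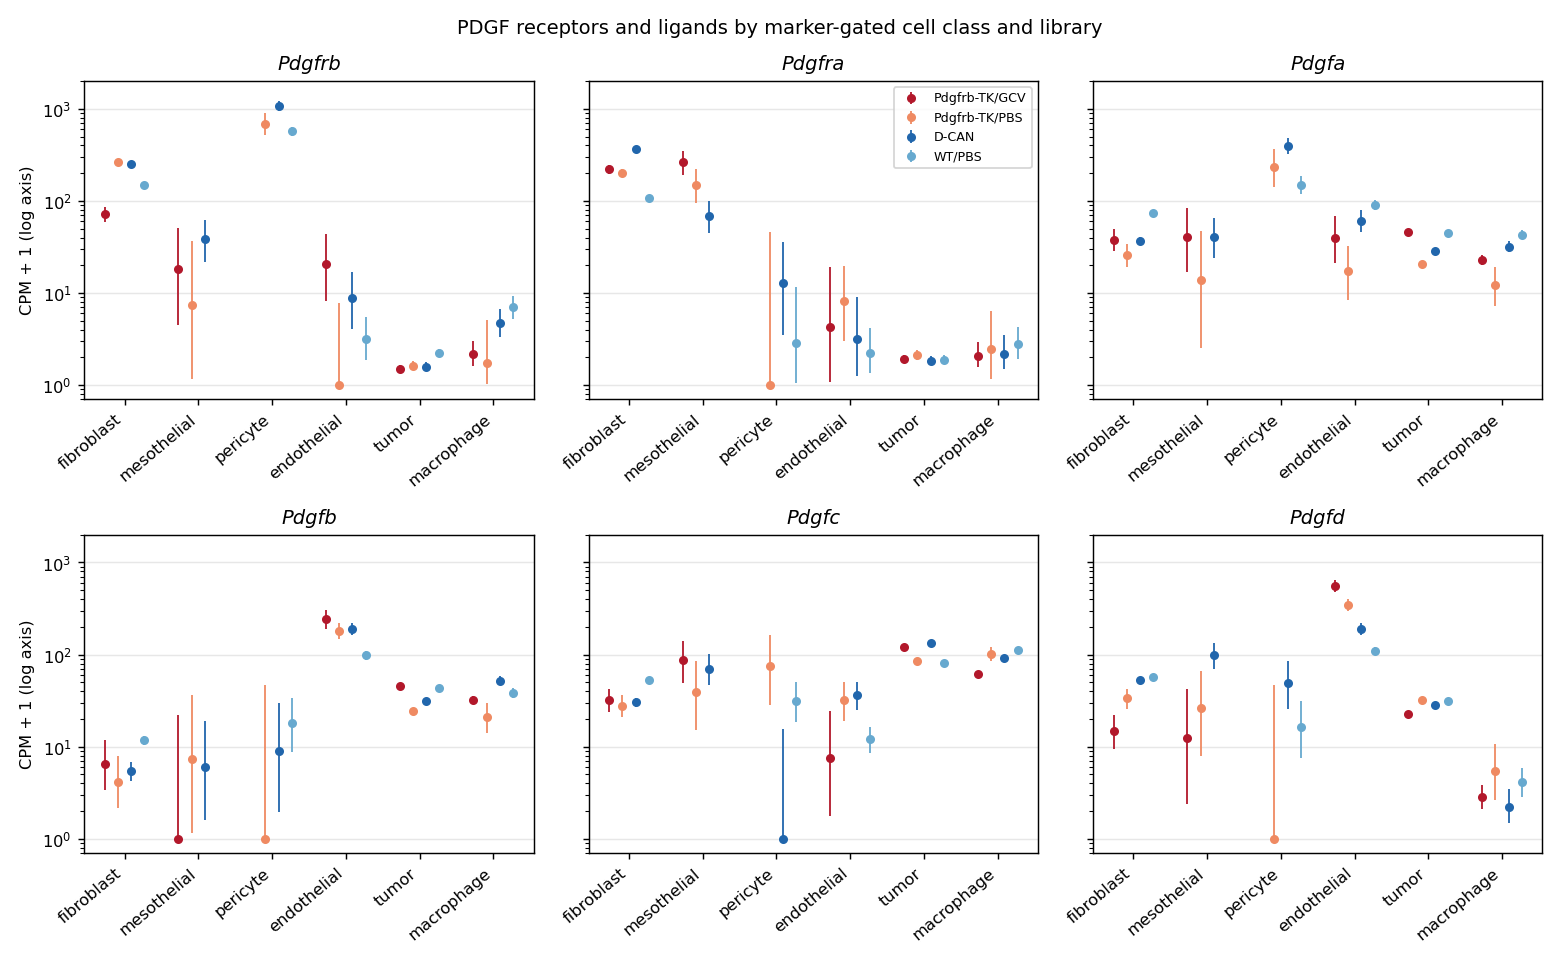
Level of each receptor and ligand (CPM + 1, log axis) by cell class, with 1 point per library and bars for the 95% Poisson interval. Class sums of fewer than 10 cells are left out, Pdgfrb peaks in pericyte-like cells and Pdgfra in fibroblast-like and mesothelial-like cells, and the ligand panels show ECs high for Pdgfb and Pdgfd.

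Counted over whole libraries, Pdgfrb gave 295 UMIs with GCV (2.31 CPM) and 803 in its control (9.56 CPM). It gave 3568 with D-CAN (27.5 CPM) and 4148 in WT/PBS (26.7 CPM). Pdgfrb over all cells was thus 4.14-fold lower with GCV than with PBS (3.62 to 4.75), and 1.03 times the PBS level with D-CAN (0.986 to 1.08). In such whole-library sums, fewer cells of a type and less RNA per cell cannot be told apart. Cells with at least 2 Pdgfrb UMIs made up 0.440% of cells with GCV and 1.64% in its control, and 5.33% with D-CAN and 6.92% in WT/PBS.

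Fibroblast-like cells held most Pdgfrb UMIs where they were common, 78.7% with D-CAN, 77.1% in WT/PBS and 62.0% in Pdgfrb-TK/PBS, and 34.9% with GCV. The few pericyte-like cells held 6.44% to 7.46% of the Pdgfrb UMIs of every library. Ungated cells held 33.9% in Pdgfrb-TK/GCV, and 76.0% of these ungated Pdgfrb UMIs were in the mesothelial-like cluster. For Pdgfra the fibroblast-like share was 37.8%, 53.2%, 90.8% and 87.5%, and ungated cells held 44.5%, 31.7%, 6.46% and 8.72%. Of the ungated Pdgfra UMIs, 94.4% in Pdgfrb-TK/GCV and 92.1% in Pdgfrb-TK/PBS were again in the mesothelial-like cluster.

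**Figure D2:**
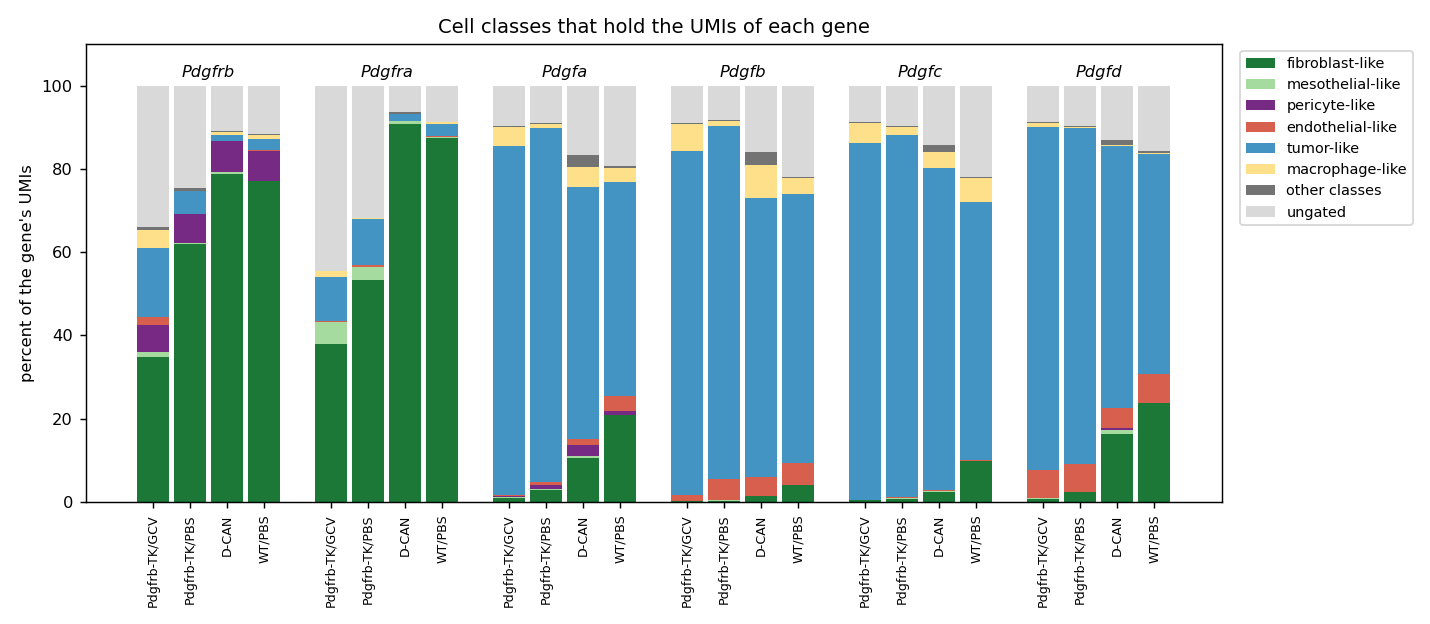
Percent of each gene's UMIs held by each cell class, stacked to the whole of the gene, with 1 bar per library. Fibroblast-like cells hold 34.9% to 78.7% of Pdgfrb UMIs, and tumor-like cells hold more than 51% of the UMIs of each ligand in every library.

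Within fibroblast-like cells, GCV and PBS were compared for the receptor whose promoter chose the cells to be killed. Whether the cells measured with GCV were survivors of the killing was not tested. Pdgfrb was counted at 70.8 CPM (57.8 to 85.8, 103 UMIs) with GCV and 261 CPM (238 to 285, 498 UMIs) in its control, and at 254 CPM (244 to 263) with D-CAN against 147 CPM (142 to 152) in WT/PBS. Pdgfrb-TK/GCV was the lowest of the 4, and no 2 intervals overlapped except those of Pdgfrb-TK/PBS and D-CAN. Pdgfrb was 3.69-fold lower with GCV than with PBS (2.98 to 4.60). With WT/PBS in place of the control, the log2 difference went from -1.87 to -1.05.

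Pdgfrb was also lower with GCV in both main parts of the class. In the mesothelial-like cluster, fibroblast-like cells held 59.5 CPM of Pdgfrb in Pdgfrb-TK/GCV (93 cells) and 167 CPM in Pdgfrb-TK/PBS (188 cells), a 2.80-fold lower level (2.14 to 3.70). In the clusters named for fibroblasts they held 131 CPM (16 cells) and 497 CPM (103 cells), a 3.78-fold lower level (2.52 to 5.91). Those clusters did not hold the same cells. One was led by Lrrc15, Fbn2 and Frem1, with Col8a1 and Col12a1 among its leading genes. This cluster reached 726 CPM of Pdgfrb (637 to 825) in Pdgfrb-TK/PBS and counted 63 cells there. In Pdgfrb-TK/GCV it held 237 CPM (126 to 405, 13 UMIs), on only 3 cells. The one led by Clec3b, Chl1 and Dpt, with Pi16, held 58.5 CPM (23.5 to 121, 7 UMIs) in Pdgfrb-TK/GCV and 72.9 CPM (37.6 to 127, 12 UMIs) in Pdgfrb-TK/PBS, with 12 and 38 cells. Within this cluster no difference was detectable at this depth.

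Pdgfra in the same cells was nearly level between the 2 Pdgfrb-TK libraries. Its levels were 221 CPM (197 to 246) with GCV and 201 CPM (182 to 222) in its control, and 366 CPM (355 to 377) with D-CAN against 107 CPM (103 to 112) in WT/PBS. The GCV level was 1.10 times that of PBS (0.942 to 1.27), and the fold was 1.22 (0.902 to 1.64) in fibroblast-like clusters and 1.19 (0.987 to 1.42) in the mesothelial-like cluster. The 2 receptors thus differed in their folds by amounts beyond counting error, within the same libraries and cells.

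With D-CAN both receptors were higher in fibroblast-like cells than in WT/PBS. Pdgfrb was 1.72-fold higher (1.64 to 1.81) and Pdgfra 3.41-fold higher (3.24 to 3.59). Against Pdgfrb-TK/PBS in place of WT/PBS, the Pdgfrb difference vanished, from 0.78 to -0.04 on the log2 scale, and that of Pdgfra went from 1.76 to 0.86. The 2 PBS libraries also differed from each other, Pdgfrb being 1.77-fold (1.61 to 1.95) and Pdgfra 1.88-fold (1.68 to 2.09) higher in Pdgfrb-TK/PBS than in WT/PBS. For Pdgfrb this was about as large as the D-CAN fold, and for Pdgfra it was smaller.

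The cells behind the D-CAN comparison also differed in kind. The Clec3b, Chl1 and Dpt cluster held 627 gated cells in D-CAN and 45 in WT/PBS, while a cluster led by Tac1, Il1rl1 and Bmpr1b, with Has1 and Apod, held 22 and 763. Both receptors were higher in D-CAN in all 4 clusters that had at least 30 fibroblast-like cells in both libraries, and the interval lay above 1 in 3 of the 4. The 3 were the Clec3b, Chl1 and Dpt cluster, the Lrrc15, Fbn2 and Frem1 cluster and the mesothelial-like cluster. The other, led by Cfd, Apoc1 and Retn, took no class name from the markers. The Pdgfrb folds in these clusters were 1.05 to 1.74 and the Pdgfra folds 1.28 to 2.97. In the Clec3b, Chl1 and Dpt cluster Pdgfra stood at 488 CPM with D-CAN and 165 CPM in WT/PBS, its highest level in each among clusters with at least 30 of these cells. In the Lrrc15, Fbn2 and Frem1 cluster Pdgfrb stood at 459 CPM and 298 CPM, likewise its highest. With D-CAN the receptors thus peaked in different fibroblast-like clusters, Pdgfra being at 193 CPM (174 to 214) in the Lrrc15, Fbn2 and Frem1 cluster. In WT/PBS Pdgfra was at 149 CPM (139 to 160) there, within the interval of the Clec3b, Chl1 and Dpt cluster (129 to 207). Which of these clusters held more Pdgfra in WT/PBS could therefore not be told.

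**Figure D3:**
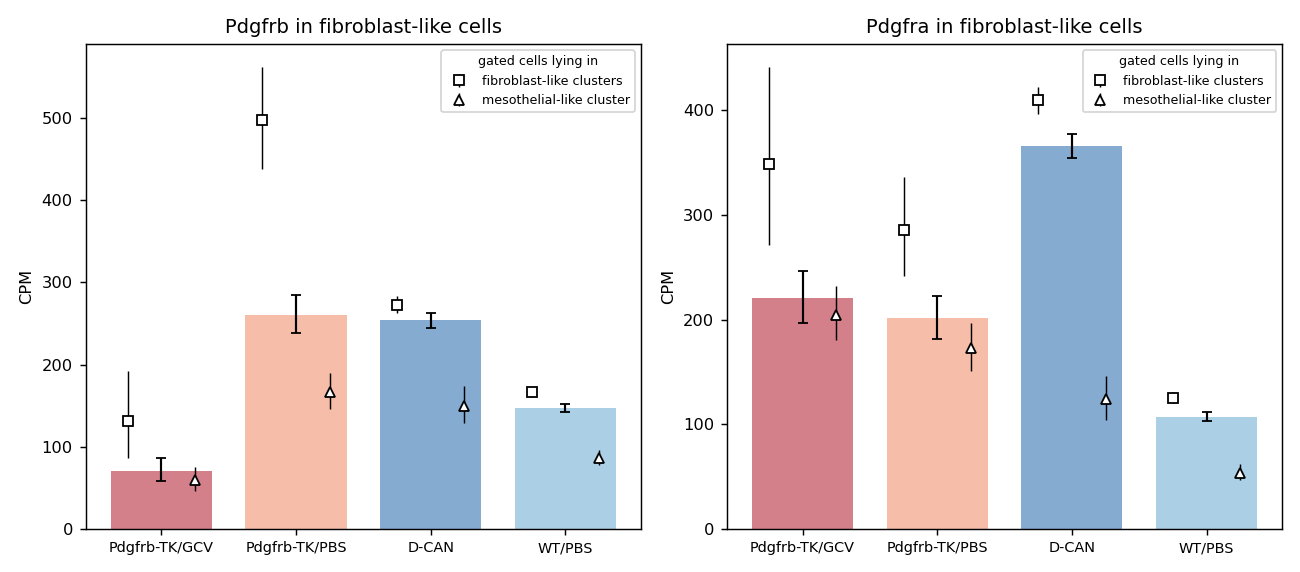
Pdgfrb and Pdgfra (CPM) in fibroblast-like cells of the 4 libraries, with bars and 95% Poisson intervals for all gated cells, squares for those in fibroblast-like clusters and triangles for those in the mesothelial-like cluster. Pdgfrb is lowest in Pdgfrb-TK/GCV in all 3 sets of cells, and the 2 Pdgfrb-TK libraries lie close together for Pdgfra. In fibroblast-like clusters the Pdgfrb interval of Pdgfrb-TK/GCV (85.8 to 192) holds the WT/PBS level (167 CPM).

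The fibroblast-like cells were also split by CAF genes. Each cell was counted for 10 genes of inflammatory CAFs (iCAFs, such as Il6, Clec3b and Pi16) and 10 of myofibroblastic CAFs (myCAFs, such as Acta2, Tagln and Lrrc15), and went to the side with more genes detected. Cells with equal numbers, 16.4%, 10.7%, 7.43% and 6.24% of the class, went to neither side. Cells with more myCAF genes made up 57.8% of the class with GCV, 67.7% in its control, 43.2% with D-CAN and 83.7% in WT/PBS. On that side Pdgfrb stood at 69.1 CPM, 328 CPM, 340 CPM and 159 CPM, and on the iCAF side at 72.2 CPM, 79.0 CPM, 159 CPM and 52.4 CPM. Pdgfrb was therefore higher on the myCAF side in 3 libraries, and level between the sides in Pdgfrb-TK/GCV. The lower Pdgfrb with GCV was seen on the myCAF side. On the iCAF side the intervals with GCV (45.2 to 109) and in its control (52.1 to 115) overlapped, and no difference was detectable. Pdgfra was higher on the iCAF side in all 4, at 253 CPM, 284 CPM, 494 CPM and 130 CPM, against 164 CPM, 166 CPM, 272 CPM and 105 CPM on the myCAF side. Cells with equal numbers held 383 CPM (310 to 467), 310 CPM (236 to 400), 263 CPM and 114 CPM of Pdgfra. In the Pdgfrb-TK libraries these levels lay above the iCAF side, with overlapping intervals.

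To compare shares of cells at 1 depth, each cell was thinned to 2000 UMIs, which left out 4, 29, 111 and 169 fibroblast-like cells. Of the 112, 290, 845 and 1482 kept, 17.0% (10.5 to 25.2), 33.8%, 35.7% and 27.7% had a Pdgfrb UMI. Unthinned, the shares were 44.0%, 51.7%, 68.2% and 60.8%, at class medians of 11159, 5024, 9644 and 11386 UMIs. Thinned Pdgfra shares were 31.3%, 34.1%, 51.0% and 19.6%, and 68.1%, 56.1%, 75.8% and 55.7% unthinned. Lymphocyte-like cells, which should lack both genes, gave a thinned Pdgfrb share of 0.641% (1 of 156) in Pdgfrb-TK/GCV and 3.12% (1 of 32) in WT/PBS. They gave 0 of 596 in D-CAN, at medians of 2032.5 to 3477 UMIs in these 3 libraries, and their Pdgfra shares were 0 of 156, 0 of 32 and 0.168% (1 of 596). In each of the 3 the fibroblast-like shares lay above the upper limit of this background, which was at most 16.2% for Pdgfrb, in WT/PBS, and 10.9% for Pdgfra. In Pdgfrb-TK/PBS only 8 lymphocyte-like cells were deep enough (median 1066 UMIs over all 66), and 0 of 8 allows a share of up to 36.9%, so no background could be set there.

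Most fibroblast-like cells showed 1 receptor or none at this depth. Both receptors were found in 6.25% of cells with GCV, 12.4% in its control, 19.5% with D-CAN and 6.01% in WT/PBS. Cells with Pdgfrb alone made up 10.7%, 21.4%, 16.2% and 21.7%, and cells with Pdgfra alone 25%, 21.7%, 31.5% and 13.6%. The larger single-receptor share was thus that of Pdgfra in Pdgfrb-TK/GCV and D-CAN and that of Pdgfrb in WT/PBS, while in Pdgfrb-TK/PBS they were alike. A cell without a UMI at this depth may still express the gene.

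**Figure D4:**
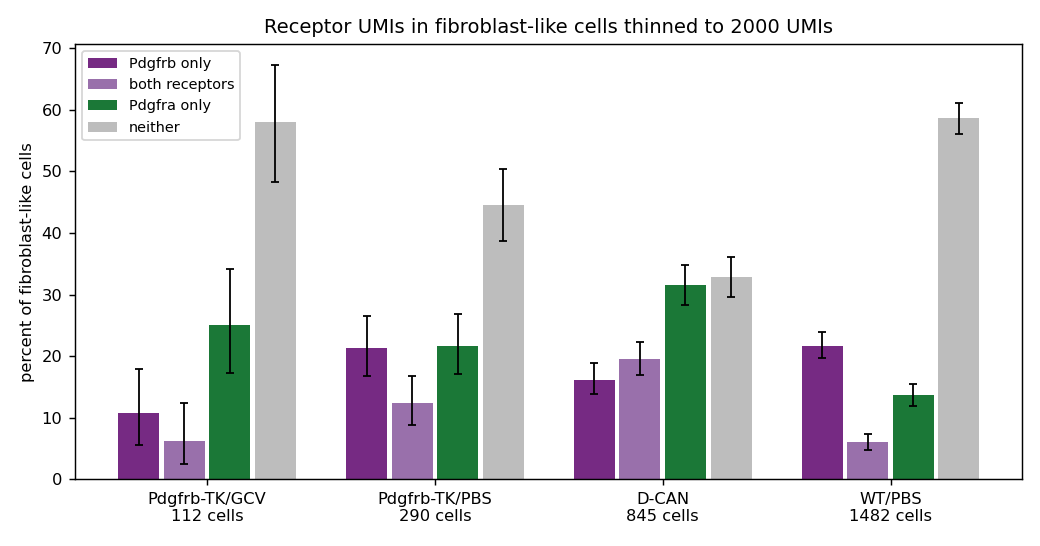
Percent of fibroblast-like cells, thinned to 2000 UMIs each, with a UMI of both receptors, of 1 receptor or of neither, by library, with exact 95% intervals. Cells with both make up 6.25%, 12.4%, 19.5% and 6.01%, and cells with neither 58.0%, 44.5%, 32.8% and 58.6%.

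Pericyte-like cells carried Pdgfrb in every library, though few were found in Pdgfrb-TK/GCV. Their 2 cells in Pdgfrb-TK/GCV were 0.0163% of that library, against 0.201% in its control, 0.226% with D-CAN and 0.585% in WT/PBS. Per cell, thinned, Pdgfrb was found in 2 of 2, 54.5% (6 of 11), 89.5% (17 of 19) and 68.8% (44 of 64), and Pdgfra in none. The Pdgfrb level was 1.21 times that of PBS with GCV (0.678 to 2.07), an interval too wide to show a difference. With D-CAN it was 1.86-fold higher (1.57 to 2.20). Without cells that also showed 2 markers of a second class the direction turned, but on only 1 UMI in D-CAN. The fibroblast markers summed in pericyte-like cells to 4487 CPM with D-CAN (6 of 8 present, Lum and Dpt at 0) and 1759 CPM in WT/PBS (7 of 8, Dpt at 0). The pericyte markers themselves summed to 10980 CPM with D-CAN and 5677 CPM in WT/PBS (8 of 8 present in each). Tumor markers summed to 64.0 CPM (4 of 8) and 1271 CPM (5 of 8). The part of these differences between the gated cells in the Pdgfrb difference was not tested. Pericyte-like cells also carried the ligand Pdgfa, at 234 CPM in Pdgfrb-TK/PBS, 392 CPM with D-CAN and 149 CPM in WT/PBS. This Pdgfa level was 2.64-fold higher with D-CAN (1.94 to 3.60).

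The ligand UMIs came mostly from tumor-like cells, which were 30.1% to 62.6% of cells and deep in UMIs. They held 51.2% to 85.1% of Pdgfa, 64.6% to 84.8% of Pdgfb, 61.9% to 86.9% of Pdgfc and 52.9% to 82.6% of Pdgfd UMIs. ECs, at 0.334% to 3.17% of cells, still held 4.86% to 6.81% of Pdgfd UMIs.

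Pdgfa and Pdgfb in tumor-like cells were lowest in Pdgfrb-TK/PBS. Pdgfa was counted at 44.6 CPM with GCV, 19.8 CPM in its control, 27.3 CPM with D-CAN and 43.6 CPM in WT/PBS, and Pdgfb at 44.2 CPM, 23.6 CPM, 30.7 CPM and 42.7 CPM. With GCV, Pdgfa was 2.25-fold (2.11 to 2.39) and Pdgfb 1.88-fold (1.77 to 1.99) higher than with PBS. With D-CAN, Pdgfa was 1.59-fold (1.51 to 1.68) and Pdgfb 1.39-fold (1.32 to 1.46) lower. The level of each in the treated libraries lay between those of the 2 PBS libraries with D-CAN, and just above WT/PBS with GCV. WT/PBS exceeded Pdgfrb-TK/PBS by 2.20-fold (2.07 to 2.34) for Pdgfa and 1.81-fold (1.71 to 1.92) for Pdgfb.

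Pdgfc and Pdgfd were less tied to the PBS library. Pdgfc in tumor-like cells stood at 119 CPM, 84.7 CPM, 132 CPM and 80.4 CPM, and was higher with either treatment, 1.40-fold with GCV (1.36 to 1.45) and 1.64-fold with D-CAN (1.59 to 1.69). Pdgfd stood at 21.8 CPM, 31.5 CPM, 27.2 CPM and 30.02 CPM, and was 1.44-fold lower with GCV (1.36 to 1.53) and 1.10-fold lower with D-CAN (1.04 to 1.17), the latter turning to 0.50 on the log2 scale with classes from clusters. Of the 4 ligands only Pdgfa with GCV passed 2-fold in tumor-like cells, where 3.56% of 17325 genes were at least 2-fold higher and 1.36% lower. With D-CAN none of the 4 passed, against 7.55% higher and 2.05% lower of 17621 genes.

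Tumor-like cells fell in several clusters whose sizes differed between libraries. A cluster led by Lingo2, Nkain2 and Piezo2 held 2064 gated cells in Pdgfrb-TK/GCV and 617 in Pdgfrb-TK/PBS, and one led by Gkn2, Gkn1 and Muc5ac, gastric mucosa genes, held 465 and 2068. The gastric-gene cluster was low in Pdgfb (12.4 to 23.9 CPM over the 4 libraries), and a cluster led by Csf2, Lce1g and Sprr2k was high (73.8 to 104 CPM). Within clusters of at least 30 cells in both libraries, Pdgfa was higher with GCV in 7 of 9, with the interval above 1 in 5, over folds of 0.745 to 3.16. The 2 with lower Pdgfa had hemoglobin genes among their leading genes, cluster medians of 1584 and 740 UMIs, and intervals spanning 1. Pdgfb was higher with GCV in 5 of 9 (folds 0.511 to 2.97), with the interval above 1 in 3. Its lowest fold was in the shallower hemoglobin-gene cluster and its highest in a cluster led by Ccl22, Itgae and Tpsb2. Pdgfc was higher with GCV in 4 of 9 and lower in 5 (0.774 to 1.202), with the interval above 1 in 1 and below 1 in 1. The highest of these Pdgfc folds lay below the fold over all tumor-like cells. For Pdgfb and Pdgfc the direction seen over all tumor-like cells was thus not shared by every cluster. Pdgfd was lower with GCV in 8 of 8, at folds of 0.255 to 0.850. With D-CAN, Pdgfa was lower in 6 of 6 clusters (folds 0.452 to 0.908) and Pdgfc higher in 6 of 7 (0.964 to 1.85), while Pdgfb was lower in 5 of 7 and Pdgfd in 4 of 7 (0.215 to 1.29).

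ECs had the highest Pdgfb and Pdgfd levels of any class with at least 10 cells. Pdgfb stood at 240.1 CPM with GCV (74 UMIs), 181 CPM in its control (99 UMIs), 191 CPM with D-CAN (173 UMIs) and 97.4 CPM in WT/PBS (310 UMIs). The 1.33-fold higher level with GCV (0.970 to 1.82) lay within counting error, and the 1.96-fold higher level with D-CAN (1.62 to 2.37) did not. The 2 PBS libraries differed by about as much, Pdgfb being 1.85-fold higher in Pdgfrb-TK/PBS than in WT/PBS (1.46 to 2.33). Pdgfd stood at 561 CPM, 343 CPM, 191 CPM and 108 CPM. It was 1.64-fold higher with GCV (1.32 to 2.02) and 1.76-fold with D-CAN (1.46 to 2.12). Thinned shares of ECs with a Pdgfb UMI were 39.5%, 35.2%, 31.0% and 13.5%, and with a Pdgfd UMI 44.7%, 38.6%, 19.0% and 21.9%. Unlike its CPM, the Pdgfd share was thus not higher with D-CAN than in WT/PBS.

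Most ECs fell in either of 2 clusters. The cluster led by Adgrl4, Gpihbp1 and Cyyr1, with the capillary genes Plvap and Emcn, held 254 CPM of Pdgfb with D-CAN and 117 CPM in WT/PBS, and 288 CPM and 132 CPM of Pdgfd. The cluster with Prox1, Lyve1 and Ccl21a, known for lymphatic ECs, held 137 CPM and 54.5 CPM of Pdgfb, and 93.1 CPM and 56.6 CPM of Pdgfd. All 4 D-CAN folds had intervals above 1. Pdgfa in ECs stood at 38.9 CPM, 16.4 CPM, 59.6 CPM and 89.2 CPM, and was 1.497-fold lower with D-CAN (1.11 to 2.04). Against the other PBS library, Pdgfd in ECs was lower with D-CAN and Pdgfa higher, and Pdgfb was nearly level (191 CPM against 181 CPM). Of the members in ECs, Pdgfa passed 2-fold higher with GCV, on 12 and 9 UMIs and with an interval that reached below 1 (0.917 to 6.37), and Pdgfc with D-CAN (3.21-fold, 1.93 to 5.34). None with at least 20 UMIs passed 2-fold lower. Pdgfc with GCV fell under that minimum, at 2 UMIs against 17 (4.78-fold lower, 1.13 to 42.6). Of all genes in ECs, 4.79% were at least 2-fold higher and 5.21% lower with GCV, and 14.5% and 5.19% with D-CAN.

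Macrophage-like cells carried Pdgfc, Pdgfb and Pdgfa and little Pdgfd (1.205 to 4.44 CPM). Pdgfc stood at 61.1 CPM with GCV, 101 CPM in its control, 91.0 CPM with D-CAN and 110.1 CPM in WT/PBS. It was 1.66-fold lower with GCV (1.37 to 1.99) and 1.21-fold lower with D-CAN (1.08 to 1.36), the latter turning to 0.11 on the log2 scale without cells showing 2 markers of a second class. In the C1qa and Ms4a7 cluster, which held 710 and 269 of these cells with and without GCV, the Pdgfc fold was 0.712 (0.576 to 0.885). In that cluster the D-CAN fold was 1.496 (1.15 to 1.97), and in the cluster led by Cxcl3, Ccl4 and Rsad2, with Il1b, it was 0.391 (0.308 to 0.491). On the log2(CPM + 1) scale no ligand passed 2-fold in macrophage-like cells as a whole (the low counts of Pdgfd gave folds of 0.413 and 0.385), where 6.74% of genes were at least 2-fold higher and 3.34% lower with GCV, and 13.9% and 4.62% with D-CAN.

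Fibroblast-like cells carried ligands too. Pdgfa stood at 37.1 CPM with GCV, 24.6 CPM in its control, 35.4 CPM with D-CAN and 72.8 CPM in WT/PBS, and Pdgfd at 13.7 CPM, 32.5 CPM, 52.1 CPM and 55.5 CPM. With GCV, Pdgfd was 2.36-fold lower (1.41 to 4.13) and Pdgfa 1.51-fold higher (1.0002 to 2.28). Within the fibroblast-like clusters Pdgfd was at 0.839 times the PBS level (0.412 to 1.60) and in the mesothelial-like cluster at 0.344 times (0.124 to 0.834), and without cells showing 2 markers of a second class the log2 difference turned to 0.21. The log2 difference of Pdgfa turned to -0.95 against the other PBS library. With D-CAN, Pdgfa was 2.06-fold (1.84 to 2.30), Pdgfb 2.43-fold (1.78 to 3.37) and Pdgfc 1.78-fold lower (1.57 to 2.02), and Pdgfd was 0.940 times the PBS level (0.849 to 1.04). Against the other PBS library the log2 differences of Pdgfa, Pdgfb and Pdgfc turned to 0.51, 0.39 and 0.13. In the mesothelial-like cluster Pdgfb was at 1.02 times the PBS level (0.577 to 1.73) and Pdgfc 1.52-fold higher (1.196 to 1.92), while both were lower in the fibroblast-like clusters.

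The D-CAN direction of Pdgfa turned round within clusters. In WT/PBS the Tac1, Il1rl1 and Bmpr1b cluster, nearly empty in D-CAN, held 111 CPM of Pdgfa (105 to 117), above any other fibroblast-like cluster of that library. In the 4 clusters with 30 cells in both libraries, Pdgfa was higher in D-CAN in each, at folds of 1.03 to 3.09, with the interval above 1 in 2. Of those 2, the Clec3b, Chl1 and Dpt cluster had a fold of 3.09 (1.04 to 15.2). The Lrrc15, Fbn2 and Frem1 cluster stood at 63.9 CPM of Pdgfa with D-CAN and 26.6 CPM in WT/PBS. The mesothelial-like cluster gave a fold of 1.03 (0.715 to 1.46). The unnamed cluster led by Cfd, Apoc1 and Retn gave 1.08 (0.569 to 1.98). Pdgfd, level over all fibroblast-like cells, was lower with D-CAN in 4 of 4 clusters, with the interval below 1 in 2, and most so in the Lrrc15, Fbn2 and Frem1 cluster, at 21.7 CPM against 120.5 CPM.

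Other classes gave small ligand counts. Acinar-like cells, of which only D-CAN had more than 10 (142 cells), held 122 CPM of Pdgfc (118 UMIs). Neutrophil-like cells held 4 Pdgfa UMIs in D-CAN and 33 in WT/PBS, 2.36 CPM and 33.0 CPM. Mesothelial-like cells in D-CAN held 97.0 CPM of Pdgfd on 39 UMIs.

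**Figure D5:**
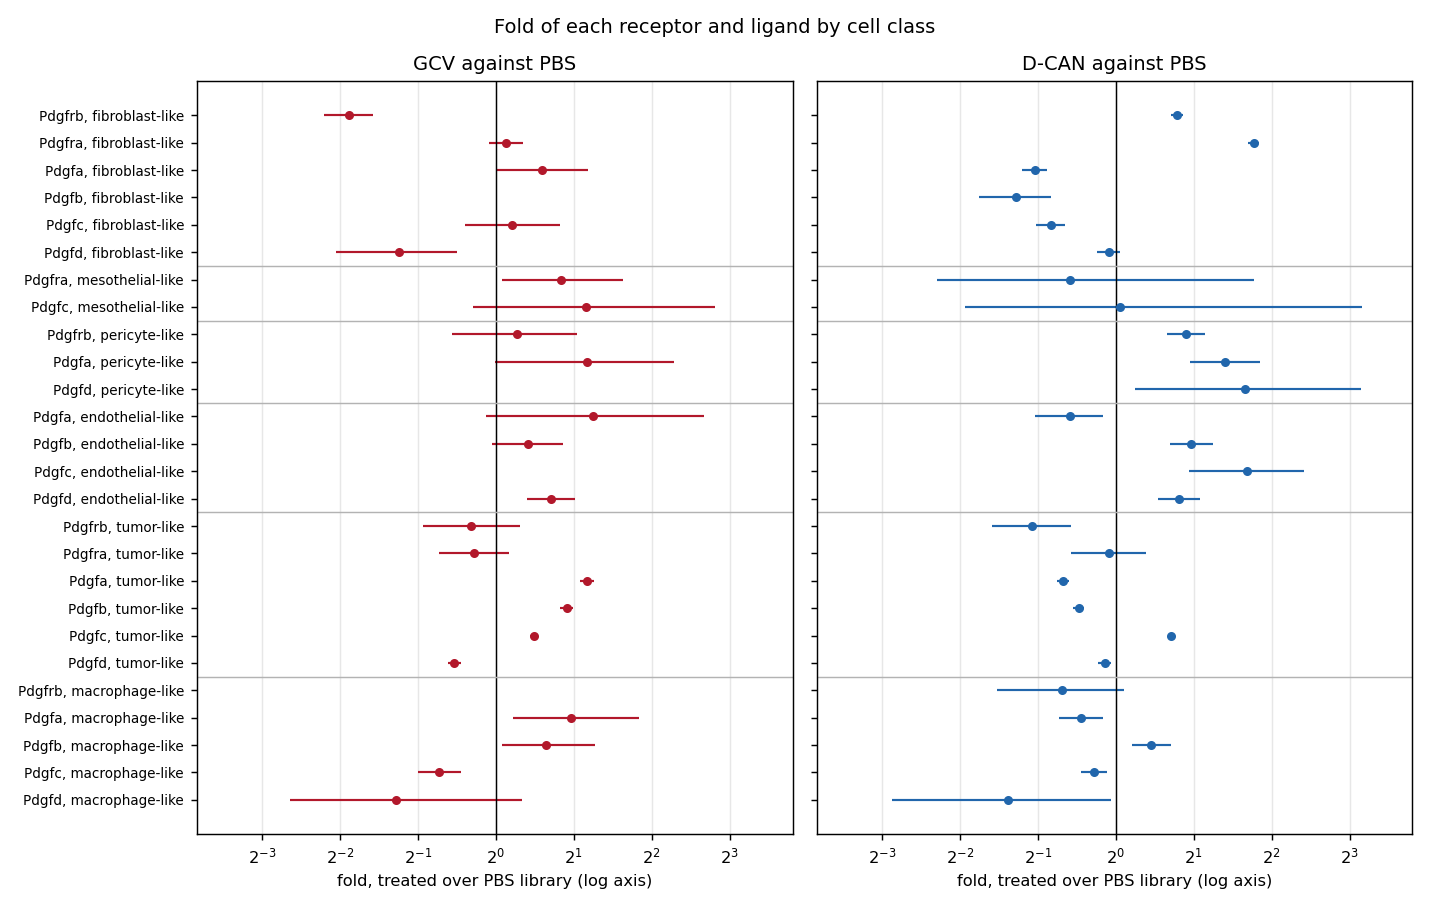
Treated over PBS level of each gene (fold, log axis) by cell class, with 95% intervals for counting error, for sums with at least 20 UMIs in the 2 libraries. GCV gives Pdgfrb at 0.271 and Pdgfra at 1.10 in fibroblast-like cells, and D-CAN gives 1.72 and 3.41, while Pdgfa lies above 1 with GCV and below 1 with D-CAN in tumor-like cells.

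Counted against a 2-fold limit on the log2(CPM + 1) scale, 2 of the 5 members with at least 20 UMIs were lower in fibroblast-like cells with GCV (Pdgfrb and Pdgfd), and none higher. The call of Pdgfd was lost within fibroblast-like clusters and without cells showing 2 markers of a second class, as given above. Over all 10346 genes measured there, 7.4% were lower and 2.51% higher. With D-CAN 1 of 6 was higher (Pdgfra) and 2 lower (Pdgfa and Pdgfb), against 12.2% and 7.35% of 15247 genes. None of these D-CAN calls held against the other PBS library, where the directions of Pdgfa and Pdgfb turned. Within clusters, Pdgfa was higher with D-CAN in 4 of 4 (the interval above 1 in 2), and Pdgfb was at 1.02 times the PBS level in the 1 cluster measured. The median gene differed by -0.14 with GCV and 0.12 with D-CAN on the log2 scale.

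A list of 41 further genes of the pathway was read in the same cells, of which 40 had enough UMIs in each comparison. With GCV 2 passed 2-fold higher and 2 lower, and the list's median log2 difference was 0.02. These 4 became 7 with median-of-ratios scaling and 9, of 31 measured, with classes from clusters. The share of all genes under those settings is not given here, so these counts cannot be read as a result about the list. The 2 that were higher are the immediate-early transcription factor genes Jun, at 627 CPM against 269 CPM (2.33-fold, 2.09 to 2.60), and Fosl1 (2.15-fold, 1.32 to 3.58). Those lower were Spry1, an inhibitor of receptor tyrosine kinase signaling, at 6.18 CPM against 40.9 CPM (6.61-fold, 3.31 to 14.99), and Nrp1, a co-receptor that also binds PDGF chains (2.63-fold, 2.04 to 3.41). None of the 12 receptor-proximal signaling genes, which include Grb2, Shc1, Pik3ca and Plcg1, passed 2-fold, and their median was -0.33. The 7 immediate-early genes had a median of 0.86 and the 8 cell-cycle genes 0.34. Jun was also 2.37-fold higher with GCV in tumor-like cells and 3.55-fold in macrophage-like cells, so it was not particular to fibroblast-like cells.

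With D-CAN 4 of these 40 genes were higher and 2 lower in fibroblast-like cells, and the list's median was 0.22. These counts are no higher a share than over all genes, of which 12.2% were higher and 7.35% lower. The 4 are the cell-cycle genes Top2a at 69.9 CPM against 18.8 CPM (3.72-fold, 3.295 to 4.204), Mki67 (2.82-fold, 2.46 to 3.22), Ube2c (2.62-fold, 2.36 to 2.91) and Cenpf (2.34-fold, 2.04 to 2.68). The 8 cell-cycle genes had a median of 0.91. The lower genes were Fosl1 (2.64-fold, 2.28 to 3.08) and Myc (2.15-fold, 1.92 to 2.41), both immediate-early genes, a group with a median of -0.41. None of the 12 receptor-proximal genes passed 2-fold, with a median of 0.16. Lrp1, a large endocytic receptor that can associate with PDGFRβ, was 1.90-fold higher (1.85 to 1.95). Jun was 1.82-fold lower (1.77 to 1.87), the reverse of its place with GCV.

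In tumor-like cells 5 of 41 listed genes were higher and 0 lower with GCV, beside 3.56% and 1.36% of all genes, and 1 was higher and 1 lower with D-CAN, beside 7.55% and 2.05%. Those higher with GCV included the protease genes Plat (2.45-fold, 2.38 to 2.52) and Plau (2.96-fold, 2.46 to 3.59), whose products can activate PDGF-C or PDGF-D. ECs had 5 of 33 higher and 0 lower with GCV, beside 4.79% and 5.21% of all genes, and 4 of the 5 are cell-cycle genes. With D-CAN they had 4 of 40 higher and 3 lower, beside 14.5% and 5.19%. Macrophage-like cells had 3 of 41 higher and 1 lower with GCV, beside 6.74% and 3.34%, and 4 higher and 2 lower with D-CAN, beside 13.9% and 4.62%. Nrp1 was 3.27-fold higher with D-CAN in macrophage-like cells (2.80 to 3.83) and 2.98-fold in tumor-like cells (2.78 to 3.21).

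The genes most like each member were taken by Pearson correlation of log2(CPM + 1) over 29 sums of a class within a library, among 17238 genes. These points share libraries and depth, so the values are a description. Pdgfrb was most like Heyl (0.953), a Notch target gene of mural cells, then B830012L14Rik, Cygb, Cd248 and Rian (0.941 to 0.939). Pdgfra was most like Prr16 (0.946), then Islr, Nfasc, Svep1 and Lrrn2 (0.945 to 0.941). The 2 receptors correlated at 0.723 with each other. Among the ligands, Pdgfd was most like Schip1 (0.916) and Jcad (0.910), Pdgfa most like Phldb1 (0.868), Pdgfc most like Fbxo31 (0.861) and Pdgfb most like Adam10 (0.839).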

How the data were processed

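Tumors pooled by treatment were measured by droplet 3' scRNA-seq, with 1 library per condition. The authors deposited raw counts, that is UMIs per gene and cell, from Cell Ranger. The submitters' processing notes name STAR 2.6 and mm10, and the matrix header names version 7.0.0. Whether intronic reads were counted is not given in the sources used here. The labels' protocol text describes nuclei of another tissue, so conditions were taken from the titles. The labels name no separate cultures or animals within a library. Of the listed genes, 32235 are in GENCODE M21.

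UMIs were summed per library and gated class and scaled to CPM (Python 3.11.15, scipy 1.17.1), with exact Poisson intervals for levels, exact conditional binomial intervals for folds and Clopper-Pearson intervals for shares. A single library stands for each condition, so nothing was tested. A gene was called past 2-fold with a pseudocount of 1 CPM and at least 20 UMIs in the 2 libraries. No doublet caller was run, and cells with markers of a second class stay in a class as long as the margin holds. Clusters came from Leiden at resolution 0.8 on 10 principal components (scanpy 1.11.5) and took class names from the same markers. The interval and gate code was tested on simulated data.

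Named genes are the 6 members, the listed pathway genes, class markers, the genes leading a cluster and the 5 most like each member. Members, lists and markers were chosen with earlier results of these data known. The alternatives changed the gate, classes, cell filters, scaling, pseudocount and PBS library, and values within clusters were added after seeing the data.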

Additional observations from a re-analysis of the deposited data

Results flagged for a closer look

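In 5 cases the folds of GCV against PBS and of D-CAN against PBS lay on opposite sides of 1, each beyond counting error. The difference between the models was not tested, since each condition is 1 library. In fibroblast-like cells Pdgfrb was at 0.271 with GCV and 1.72 with D-CAN, and Pdgfa at 1.51 (1.0002 to 2.28) and 0.486. In tumor-like cells Pdgfa was at 2.25 and 0.627, and Pdgfb at 1.88 and 0.719. In macrophage-like cells Pdgfa was at 1.96 and 0.735. For all of them the levels in the 2 PBS libraries also differed, with Pdgfrb higher and Pdgfa and Pdgfb lower in Pdgfrb-TK/PBS. Not every direction held within clusters. With D-CAN, Pdgfa was higher in 4 of 4 clusters of fibroblast-like cells (the interval above 1 in 2) and in 2 of 4 of macrophage-like cells. In tumor-like cells Pdgfa was lower with D-CAN in 6 of 6.

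Reporter features outside the gene list were counted in the 2 wild-type-host libraries, which alone list them. GFPcds had a UMI in 7.59% of deposited WT/PBS cells and 4.24% of those with D-CAN, and Tdtomato in 10.5% and 4.94%. GFPcds.rev had one in 0.112% of deposited cells in WT/PBS. The Pdgfrb-TK libraries list no such features, so none could be counted there.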

How the results depend on the processing

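Values here are log2 differences of treated against PBS. No paired analysis was possible because each condition is 1 library. Gates with 1 marker more or fewer, at least 500 genes and at most 20% mitochondrial UMIs moved no member beyond counting error. The PBS library mattered most. With that of the other model, Pdgfrb in fibroblast-like cells was at -1.05 with GCV and -0.040 with D-CAN, Pdgfra at 1.03 and 0.86, and Pdgfrb in pericyte-like cells with D-CAN at 0.63. Directions then also turned for Pdgfa in fibroblast-like cells (-0.95 with GCV, 0.51 with D-CAN), ECs (1.80 with D-CAN), tumor-like cells (0.44 with D-CAN) and macrophage-like cells (-0.92 and 1.40), for Pdgfb in fibroblast-like (0.39) and tumor-like cells (0.37) with D-CAN and macrophage-like cells with GCV (-0.24), for Pdgfc in fibroblast-like cells (0.13) and Pdgfd in ECs (-0.84) with D-CAN. Without cells showing 2 markers of a second class, D-CAN gave 0.21 for Pdgfrb in fibroblast-like cells, -0.30 in pericyte-like cells (1 against 37 UMIs) and 0.11 for Pdgfc in macrophage-like cells, and GCV gave 0.21 for Pdgfd in fibroblast-like cells. Classes from clusters gave D-CAN values of 0.34 for Pdgfrb in pericyte-like cells, 1.68 for Pdgfra in fibroblast-like cells and 0.50 for Pdgfd in tumor-like cells, and -0.049 for Pdgfra in mesothelial-like cells with GCV. Median-of-ratios scaling gave D-CAN values of 0.59 for Pdgfrb and 1.57 for Pdgfra in fibroblast-like cells. With GCV, the listed pathway genes past 2-fold went from 4 to 7 under that scaling and 9 with classes from clusters, with no share of all genes beside these counts. Apart from the fibroblast-like and pericyte-like receptor values, 43 member values were recomputed under the alternative settings, which gave 372 values. Of these, 296 stayed within counting error, 61 moved beyond it and 15 turned. A further 23 had fewer than 20 UMIs and gave no value. Restricting the class to fibroblast-like clusters was chosen after seeing the data. Beyond what each setting does to the cells used, the cause was not tested.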
